A study of Mus musculus with 73 samples.

Results

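Genes of glycolysis, gluconeogenesis and the hypoxia response are described here by their RNA levels in 73 mouse mammary tumours. The members were chosen by symbol: 35 glucose transporters, glycolytic and gluconeogenic enzymes, lactate transporters, the regulator Hif1a and 7 genes that hypoxia induces outside glycolysis. Of the 35 symbols, 34 were found among the 39438 symbols of the count table, and Aldoa was not analysed here. The 7 hypoxia-induced members, Car9, Car12, Adm, Ndrg1, Bnip3, Egln3 and Ankrd37, are described apart from the other 27.

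All tumours come from mouse models in which Cre recombinase under a keratin 14 promoter removes p53 from epithelial cells. KB1(L1363P)P tumours (L1363P below) carry the Brca1 missense variant L1363P, in the coiled-coil stretch through which BRCA1 binds PALB2, and comprise 9 sarcomatoid tumours, 9 carcinosarcomas and 3 adenocarcinomas. KP tumours lack p53 alone and comprise 3 carcinosarcomas and 5 adenocarcinomas. KB1P adenocarcinomas lack BRCA1 and p53 and carry the titles KB1P (11 tumours) or KB1PM (10 tumours), while the 23 KB2P adenocarcinomas lack BRCA2 and p53. All 29 L1363P and KP libraries were sequenced in run 5625 and all others in other runs, so genotype and run cannot be told apart between these sets. The source is labelled mammary tumor, the labelled epithelial share is 100% in adenocarcinomas, 0% in sarcomatoid tumours and 2 to 98% in L1363P carcinosarcomas, and no age or treatment is labelled. No label states which animal a tumour was taken from, and 54.1 and 54.2 share a number. The p-values therefore speak to the spread among the sequenced tumours, which may be partly technical.

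Glycolysis splits glucose into pyruvate, and tumours send much of that pyruvate to lactate even when oxygen is present. Gluconeogenesis runs the path backwards through enzymes of its own, among them the fructose bisphosphatases. When oxygen falls, the factor HIF-1, whose alpha subunit is encoded by Hif1a, is stabilised and raises transcription of most glycolytic genes and of targets such as carbonic anhydrase 9, and its control acts mainly on the protein and not on Hif1a RNA.

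Total counts ran between 13103749 and 17550129 in the L1363P and KP libraries and between 7325180 and 31615237 in the others. Levels are CPM, counts scaled to the size of each library, on one scale for all 73 libraries. Group means of Brca1 ran between 24.4 ± 6.21 CPM in KB1PM and 75.0 ± 17.7 CPM in L1363P adenocarcinomas (SD, n = 10 and 3), those of Brca2 between 23.5 ± 10.0 CPM in KP adenocarcinomas and 56.0 ± 30.7 CPM in KB1P-titled tumours (n = 5 and 11), and those of Trp53 between 20.6 ± 2.07 CPM in KP carcinosarcomas and 31.8 ± 15.7 CPM in sarcomatoid tumours (n = 3 and 9). Gene counts do not show which exons are deleted, so these ranges do not check the genotype labels. Several tumours stood apart by cell type markers. L1363P adenocarcinoma 52 had a summed level of 6 adipocyte markers of 3944 CPM, against 25.8 and 178 CPM in the other L1363P adenocarcinomas. L1363P carcinosarcoma 6 is labelled 95% epithelial, and its 8 epithelial markers summed to 329 CPM with 1657 CPM of skeletal muscle markers, against a median epithelial sum of 3218 CPM in its group. Carcinosarcomas 17 and 4, labelled 5% and 2%, had 97.5 and 333 CPM of epithelial markers. KP adenocarcinoma 90.01A had 262 CPM of epithelial and 12216 CPM of mesenchymal markers, and KB1PM tumour 8 and KB2P tumour 30 had 165 and 11.8 CPM of epithelial markers, although all 3 are labelled 100% epithelial. KP carcinosarcoma 130.10A and KP adenocarcinoma 40 had 1653 and 2134 CPM of skeletal muscle markers, against group medians of 9.12 and 9.01 CPM. Some of the results below are also given without some of these tumours, which are then named. Without KB2P tumour 30 and KB1PM tumour 8, every call named below in comparisons with KB1P or KB2P held.

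Per kilobase of exon, the most abundant members by their median over 73 tumours were Pkm, which makes pyruvate, at 253 CPM per kb, Ldha, which turns pyruvate into lactate, at 223, and Tpi1, which interconverts the triose phosphates, at 183. Ndrg1, a stress and differentiation gene, followed at 65.6 CPM per kb, then Gpi1 at 56.9 and Pfkl at 51.0. This order pools runs and does not hold in each group. Group medians of Gapdh were 101 to 157 CPM per kb in L1363P and KP tumours and 7.35 to 14.5 in the others. Those of Ndrg1 were 39.4 to 46.1 and 71.9 to 126 CPM per kb. At the low end, Slc2a3 (the transporter GLUT3) and Car9 both had 2.82 CPM per kb, Pfkfb4 had 2.43, and the muscle fructose bisphosphatase Fbp2 came last at 0.206. The member levels differed more between tumours of 1 group for the hypoxia-induced genes than for most others. The pooled within-group SD of their log2 CPM had a median of 1.15 (0.95 to 1.36, 7 genes), against 0.70 (0.52 to 2.00, 27 genes) for the other members. The gluconeogenic genes Fbp1 at 2.00 and Fbp2 at 1.98, the lactate exporter Slc16a3 at 1.44 and Slc2a3 at 1.43 had larger SDs than any hypoxia-induced member. Gpi1, with 0.52, had the smallest.

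Within isozyme pairs, the share of one member was formed from CPM per kilobase. Ldha, the subunit that favours lactate formation, made a median of 95.7% of the 2 lactate dehydrogenase RNAs in sarcomatoid L1363P tumours (92.4 to 98.0%). In L1363P carcinosarcomas its median was 88.6% (77.6 to 95.9%), in L1363P adenocarcinomas 87.7% (69.9 to 96.1%), in KB1P-titled tumours 91.2% (63.6 to 98.6%), and in KB2P tumours 75.5% (47.4 to 97.9%). All these ranges overlap. Hk2, the inducible hexokinase, made a median of 44.8% of Hk1 plus Hk2 in sarcomatoid tumours (27.8 to 63.6%), 27.7% in L1363P carcinosarcomas (16.6 to 54.9%) and 22.3% in L1363P adenocarcinomas (21.3 to 37.1%). KP adenocarcinomas had a median of 40.5% (23.8 to 45.8%), KB1P-titled tumours 46.8% (30.1 to 69.0%) and KB2P tumours 35.9% (12.2 to 74.4%), so the sarcomatoid share lay within the range of other groups. Slc16a3 (MCT4), set against the lactate transporter Slc16a1 (MCT1), had a median share of 49.6% in sarcomatoid tumours (19.9 to 74.5%), 33.4% in L1363P carcinosarcomas (19.4 to 64.6%) and 66.5% in KB1PM tumours (22.2 to 76.0%). These shares are descriptions and were not tested.

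Over all comparisons below, with every tumour included, 21 members were called at least once and 13 never were. How many of all genes were called at least once was not counted, and single comparisons called up to 35.3% of all genes tested. The 13 are the transporters Slc2a1, Slc2a3 and Slc16a1, the enzymes Pfkm, Tpi1, Eno1, Pkm and Pck2, the regulatory enzymes Pfkfb3, which makes fructose 2,6-bisphosphate, and Pdk1, which restrains pyruvate dehydrogenase, and the hypoxia-induced Ndrg1, Bnip3 and Ankrd37. Pdk1 averaged 86.9 ± 29.0 CPM in sarcomatoid tumours, 92.3 ± 24.6 CPM in L1363P carcinosarcomas and 83.5 ± 39.6 CPM in L1363P adenocarcinomas (SD, n = 9, 9 and 3). Slc2a1 averaged 269 ± 164, 215 ± 93.7 and 170.1 ± 125 CPM in the same groups.

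Sarcomatoid L1363P tumours were set against L1363P adenocarcinomas to ask how the genes differ between the histologies of one genotype. Gluconeogenic Fbp1 and Fbp2, the aldolase isozyme Aldoc and the carbonic anhydrase Car12 were lower in sarcomatoid tumours, Fbp1 to 0 counts in most of them, while Gpi1, Pgam1 and Hif1a were up to 2.27-fold higher. By edgeR's quasi-likelihood test with Benjamini-Hochberg adjustment over 16147 genes at 0.05, 8 of the 34 members changed, 3 higher and 5 lower, where 30.6% of all genes tested did (12.1% higher and 18.5% lower). The members' share is thus near that of all genes, and their median log2 fold change was 0.33 against -0.09 over all genes. An unadjusted p under 0.05 was seen for 15 members, the called ones included. The log2 fold changes of the 26 not called ran between -1.38 for Ldhb and 2.06 for Adm (edgeR adjusted p = 0.0589 and 0.0750).

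Fbp1 encodes the liver-type fructose-1,6-bisphosphatase, which opposes phosphofructokinase. In sarcomatoid tumours it ran between 0 and 0.602 CPM with a median of 0 CPM, against 17.6, 182 and 50.3 CPM in L1363P adenocarcinomas 7.2, 26.2 and 52. No count was seen in 6 of the 9 sarcomatoid tumours, where 0 counts allow up to 3 counts, worth 0.209 to 0.268 CPM per library, and the whole group held 14 counts. All sarcomatoid tumours lay below all 3 adenocarcinomas, and the log2 fold change was -9.40 with SE 1.18 (edgeR adjusted p = 4.98e-05). Fbp2, its muscle-type neighbour on chromosome 13, ran between 0 and 0.209 CPM in sarcomatoid tumours with a median of 0.0752 CPM and 9 counts in the group, against 3.20, 1.09 and 21.0 CPM in the adenocarcinomas. Again the groups did not overlap (log2 fold change -6.67, SE 1.25, edgeR adjusted p = 5.26e-04). How many of all genes separate these groups, or other groups compared below, was not counted, and 18.5% of all genes tested were called lower here. Fold changes of genes with so few counts depend on the model's prior, while the direction was the same in every tumour. Pck2, the mitochondrial enzyme that makes phosphoenolpyruvate, was not called: it averaged 63.2 ± 13.6 CPM in sarcomatoid tumours and 63.0 ± 18.3 CPM in adenocarcinomas (SD, n = 9 and 3).

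Aldoc, an aldolase best known from brain, ran between 2.44 and 43.7 CPM in sarcomatoid tumours with a median of 18.4 CPM, against 189, 81.9 and 98.2 CPM in adenocarcinomas 7.2, 26.2 and 52. The groups did not overlap, and the log2 fold change was -2.76 with SE 0.66 (edgeR adjusted p = 0.00345). Car12, a membrane carbonic anhydrase of many epithelia, ran between 4.38 and 128 CPM in sarcomatoid tumours with a median of 12.4 CPM, against 455, 379 and 303 CPM in the adenocarcinomas. Here too all 9 sarcomatoid tumours lay below all 3 adenocarcinomas (log2 fold change -3.87, SE 0.86, edgeR adjusted p = 0.00205). The calls for Fbp1, Fbp2, Aldoc and Car12 held under every alternative run for this comparison, among them leaving out each adenocarcinoma in turn.

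The promoters shown are those of Fbp1 and Car12, 2 of the 4 called members lower in every sarcomatoid tumour than in every adenocarcinoma. How many of all genes separate in this way was not counted. The Fbp1 and Car12 promoters hold no hypoxia motif in the window, while those of the other 2 genes do. Fbp2 has CACGTG 42 bases before its start, and the pair of Aldoc windows hold 3 and 1 matches. The windows run from 250 bases before to 50 after the transcription start, 5′ to 3′ on the gene's strand, from RefSeq on GRCm38.p6: chr13:62888233-62888532 on the minus strand for Fbp1 and chr9:66713436-66713735 on the plus strand for Car12. The motif searched on both strands was the core of the HIF binding site, ACGTG or GCGTG. Windows of 32 members were found, 43 in all, and 79.07% of these windows held the core, against 43.77% of all 32851 windows of the same length. The median GC content was 58.33% in member windows and 52.67% in all windows, and its part in the difference was not tested. A match of these letters is a description and not a site.
Fbp1 promoter: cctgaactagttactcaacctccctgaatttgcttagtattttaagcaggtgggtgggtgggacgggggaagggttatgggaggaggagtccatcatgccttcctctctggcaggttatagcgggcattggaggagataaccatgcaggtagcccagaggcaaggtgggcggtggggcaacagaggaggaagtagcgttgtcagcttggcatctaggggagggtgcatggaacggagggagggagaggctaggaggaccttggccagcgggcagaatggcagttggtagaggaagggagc
Car12 promoter: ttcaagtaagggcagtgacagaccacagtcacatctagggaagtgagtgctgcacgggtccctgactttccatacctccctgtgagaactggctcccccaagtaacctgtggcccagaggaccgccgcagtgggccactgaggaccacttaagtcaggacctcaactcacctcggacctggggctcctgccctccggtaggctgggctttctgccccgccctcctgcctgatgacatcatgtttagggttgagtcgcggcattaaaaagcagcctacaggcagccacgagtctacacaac

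Gpi1, the isomerase that makes fructose 6-phosphate, ran between 343 and 673 CPM in sarcomatoid tumours with a median of 559.6 CPM, against 336, 191 and 412 CPM in the adenocarcinomas (log2 fold change 0.69, SE 0.26, edgeR adjusted p = 0.0432). Pgam1, the phosphoglycerate mutase of lower glycolysis, ran between 66.9 and 175 CPM with a median of 104 CPM, against 34.6, 51.6 and 71.0 CPM (log2 fold change 0.99, SE 0.35, edgeR adjusted p = 0.0351). Hif1a ran between 259 and 862 CPM with a median of 435 CPM, against 166, 283 and 149 CPM (log2 fold change 1.19, SE 0.44, edgeR adjusted p = 0.0436). Above all 3 adenocarcinomas lay 7, 8 and 7 of the 9 sarcomatoid tumours for Gpi1, Pgam1 and Hif1a. These 3 calls were lost without adenocarcinoma 7.2 and without adenocarcinoma 26.2, with log2 fold changes between 0.43 and 1.54. With no filter on low counts Gpi1 (edgeR adjusted p = 0.0671) and Hif1a (0.0598) were lost too, and Gpi1 also in a fit of the compared groups alone (0.0640).

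Adenocarcinoma 52 set the level of several hypoxia-induced members. Car9, the tumour-associated carbonic anhydrase, had 5.36, 2.30 and 78.5 CPM in adenocarcinomas 7.2, 26.2 and 52, and sarcomatoid tumours ran between 2.38 and 14.8 CPM with a median of 6.6 CPM. With all 3 adenocarcinomas Car9 was lower in sarcomatoid tumours (log2 fold change -2.07, SE 0.76, edgeR adjusted p = 0.0412). Without adenocarcinoma 52 its sign turned, to 0.86 (edgeR adjusted p = 0.491). Adm, which encodes the vasodilator peptide adrenomedullin, ran between 5.68 and 106 CPM in sarcomatoid tumours with a median of 66.6 CPM, against 2.96, 3.26 and 35.6 CPM. Bnip3, a mitophagy receptor, ran between 23.3 and 204 CPM with a median of 92.7 CPM, against 12.2, 13.9 and 75.8 CPM, and Ankrd37, an ankyrin repeat gene, had a median of 8.08 CPM, against 1.17, 1.21 and 14.5 CPM. Adenocarcinoma 52 was the highest adenocarcinoma for each of these 4 genes, and also for Pkm with 2060.0 CPM against 704 and 733 CPM in 7.2 and 26.2.

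Without adenocarcinoma 52, 17 members changed, 12 higher and 5 lower, where 25.5% of all genes tested did (9.53% higher). This tumour was the highest adenocarcinoma for all 12 members then called higher, so leaving it out lowered the level they were compared with. The higher members were Adm (log2 fold change 4.24, edgeR adjusted p = 0.00748), the neuronal enolase Eno2 (3.13, adjusted p = 0.0357), Slc16a3 (3.04, adjusted p = 0.0192), Bnip3 (2.93, adjusted p = 0.0258) and Ankrd37 (2.47, adjusted p = 0.0373). Also higher were the hexokinase Hk2 (1.58), the phosphoglycerate kinase Pgk1 (1.58), Pgam1 (1.28), Pkm (1.16), Ldha (0.96), Gpi1 (0.95) and the enolase Eno1 (0.89), with edgeR adjusted p between 0.00361 and 0.0383. Lower were Fbp1 (-9.66), Fbp2 (-4.67), Car12 (-3.99), Aldoc (-2.88) and Ldhb, the heart-type lactate dehydrogenase subunit (log2 fold change -1.75, edgeR adjusted p = 0.0354). The adenocarcinomas then number 2. Hif1a (1.02, edgeR adjusted p = 0.151) did not pass.

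**Figure D1:**
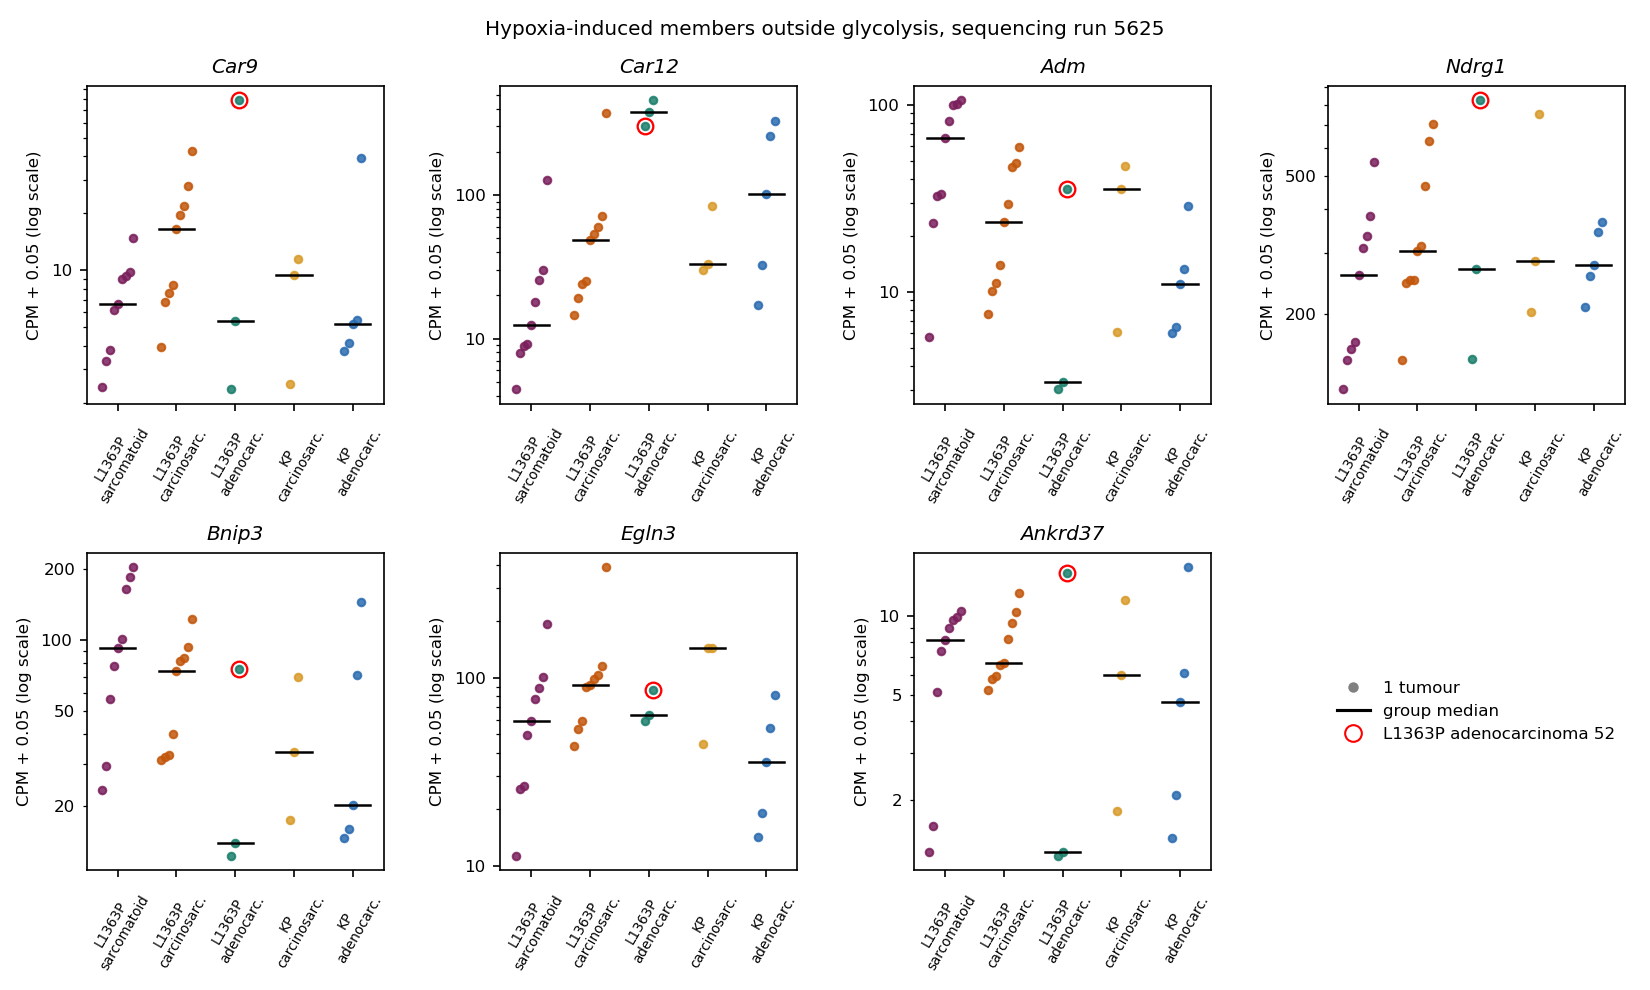
CPM of the 7 hypoxia-induced members (log axis) in the 29 tumours of run 5625 by group, 1 point per tumour, with L1363P adenocarcinoma 52 ringed. In Car9, Adm, Bnip3 and Ankrd37 the ringed tumour lies above the other L1363P adenocarcinomas, while all 3 have at least 303 CPM of Car12.

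Other cell types moved with these groups. All 8 epithelial markers were lower in sarcomatoid tumours (median sum 166 CPM, 60.4 to 469, against 2925 CPM, 1918 to 7841, in adenocarcinomas). Of the mesenchymal markers 7 of 8 were higher (21664 against 1718 CPM), as were 5 of 6 macrophage and 4 of 5 endothelial markers, and 5 of 8 proliferation markers were lower. No marker of these 5 lists was at 0 in every tumour of either group. Their part in the member results was not tested, and in bulk RNA fewer cells of a type and less RNA per cell cannot be told apart. Among genes of the same pathways that are not members, 1 of 23 other glycolysis and gluconeogenesis genes was higher, the hexokinase Hk3 (2.85), and 4 were lower, with Pck1 (-3.61), the glucose transporter Slc2a4 (-3.09) and Pdk2 (-1.54) the furthest. Of 28 other hypoxia-response genes 4 were higher, led by the collagen-modifying Lox (4.46), P4ha2 (2.26) and P4ha1 (1.68), and Hif1an, which restrains HIF, was lower (-0.89). Of 7 pentose phosphate genes Pgd was higher (0.80) and Rpia lower (-1.73). All of these passed at an edgeR adjusted p between 1.24e-04 and 0.0422.

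**Figure D2:**
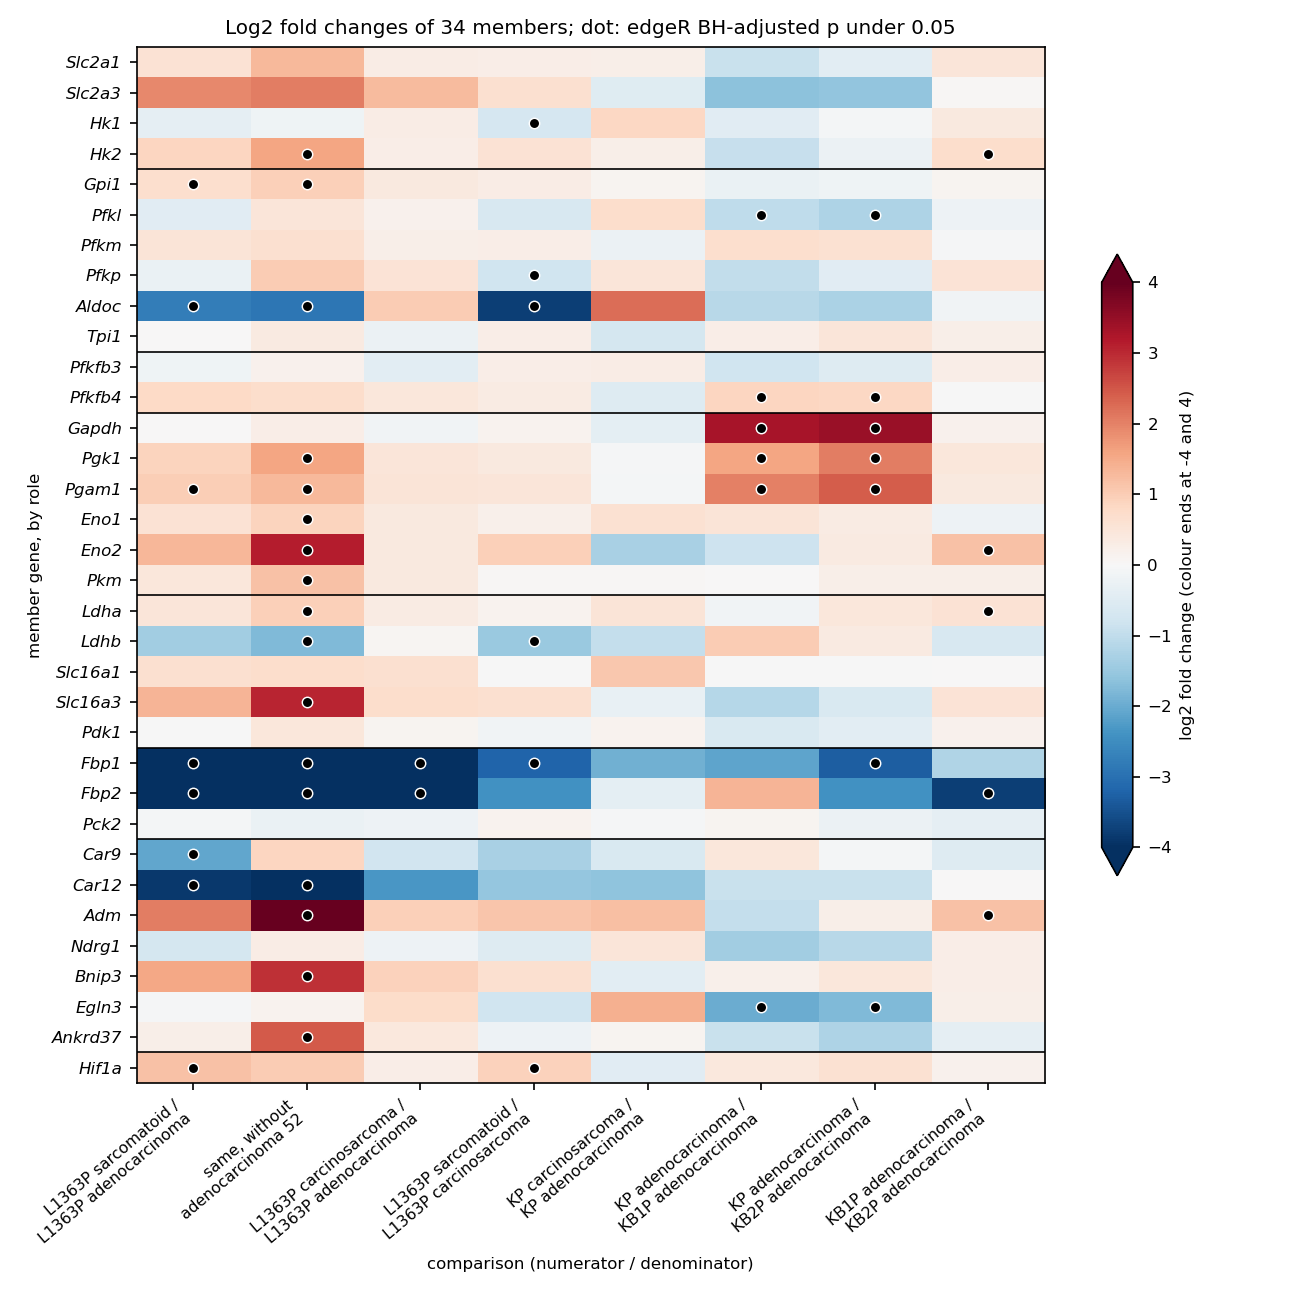
Log2 fold changes of the 34 members (rows, by role) in 8 comparisons (columns, the first-named group over the second), with a dot where the edgeR adjusted p was under 0.05. Fbp1 and Fbp2 have the strongest negative values where L1363P sarcomatoid tumours or carcinosarcomas are set against adenocarcinomas, and Gapdh, Pgk1 and Pgam1 have values of at least 1.59 where KP is set against KB1P or KB2P.

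L1363P carcinosarcomas, which mix epithelial and spindle-cell parts, were set against L1363P adenocarcinomas. Only the 2 fructose bisphosphatases changed among the 34 members, both lower, where 2.7% of all genes tested did (0.545% higher and 2.16% lower). Fbp1 ran between 0 and 2.44 CPM with a median of 1.15 CPM in carcinosarcomas, against 17.6, 182 and 50.3 CPM in adenocarcinomas. All 9 carcinosarcomas lay below all 3 adenocarcinomas (log2 fold change -6.20, SE 1.02, edgeR adjusted p = 0.00184). Fbp2 ran between 0 and 2.1 CPM with a median of 0.303 CPM, and 8 of 9 carcinosarcomas lay below all 3 adenocarcinomas (log2 fold change -4.23, SE 1.13, edgeR adjusted p = 0.0393). Without adenocarcinoma 52 the Fbp2 call was lost (-2.23, edgeR adjusted p = 0.314), and 3 members changed where 4.44% of genes did: Fbp1 (-6.45) lower, Pfkp (1.83), the platelet-type phosphofructokinase, and Pkm (1.11) higher. Adenocarcinoma 52 was the highest adenocarcinoma for Pfkp and Pkm, so leaving it out lowered the level they were compared with. With all 3 adenocarcinomas the other 32 members had log2 fold changes between -2.32 for Car12 (edgeR adjusted p = 0.137) and 1.28 for Slc2a3 (edgeR adjusted p = 0.336). Of the pathway genes that are not members, the hypoxia-response gene Plod1 (1.25) was higher and Rpia (-1.11) lower, and none of 23 other glycolysis genes passed while 2 had an unadjusted p under 0.05.

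Within the 9 L1363P carcinosarcomas, the labelled epithelial share served as a continuous term, with slopes per 10 points of that share. Of the 33 members tested (Fbp2 fell under the filter on low counts), 5 changed, where 8.34% of 14645 genes did (2.59% higher and 5.76% lower). Aldoc and Fbp1 were higher with more epithelium. Aldoc had 346 CPM in tumour 21.1 (98% epithelial) and 604 CPM in 54.1 (90%), against 23.2 CPM in 17 (5%) and 33.5 CPM in 4 (2%). Its slope was 0.41 on the log2 scale with SE 0.06 (edgeR adjusted p = 0.00594), and that of Fbp1 was 0.57 with SE 0.12 (edgeR adjusted p = 0.0215). Fbp1 was at 0 counts in tumours 17 and 4 and at 2.44 CPM at most, in tumour 53 (85%).

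Slc16a3, Adm and Pgk1 were lower with more epithelium. Slc16a3 had 66.3 and 43.4 CPM in tumours 21.1 and 54.1, against 245 and 186 CPM in 17 and 4 (slope -0.19, SE 0.04, edgeR adjusted p = 0.0139). Adm had 13.9 and 23.7 CPM in 21.1 and 54.1, against 59.7 and 46.7 CPM in 17 and 4 (slope -0.23, SE 0.05, edgeR adjusted p = 0.0354). Pgk1 had 140.4 and 204 CPM, against 329 and 307 CPM (slope -0.10, SE 0.02, edgeR adjusted p = 0.0362). The Pgk1 call was also lost with no filter on low counts (edgeR adjusted p = 0.0540) and without tumour 54.2 (0.0576). Tumours 17 and 4 thus held the lowest Aldoc and Fbp1 and the highest Slc16a3 and Pgk1 of the 9. Without them no member passed and no gene at all was called, while the slopes kept their signs. Without tumour 6, whose markers go against its label, 10 members passed, the 5 among them. In that fit 2265 of 14395 genes passed, against 1222 of 14645 with every tumour. The macrophage markers moved with the share too, with 5 of 6 lower at more epithelium, and their part was not tested. Among pathway genes that are not members, Hk3 and the transporter Slc16a7, and Lox and P4ha2, were lower and Rpe was higher.

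Sarcomatoid tumours were also set against L1363P carcinosarcomas. Hif1a was higher, and Hk1, Pfkp, Aldoc, Ldhb and Fbp1 were lower, 6 of 34 members where 21.5% of all genes tested changed (7.45% higher and 14% lower). Aldoc ran between 2.44 and 43.7 CPM in sarcomatoid tumours with a median of 18.4 CPM, against 23.2 to 604 CPM with a median of 229.6 CPM in carcinosarcomas. Below all carcinosarcomas lay 6 of 9 sarcomatoid tumours (log2 fold change -3.77, SE 0.57, edgeR adjusted p = 3.71e-04). Ldhb ran between 11.0 and 42.7 CPM with a median of 23.9 CPM, against 26.1 to 130.3 CPM with a median of 54.5 CPM, and 7 of 9 sarcomatoid tumours lay below all carcinosarcomas (-1.48, SE 0.43, edgeR adjusted p = 0.0165). Fbp1, with a median of 0 CPM in sarcomatoid tumours against 1.15 CPM in carcinosarcomas, was lower as well (-3.21, SE 0.96, edgeR adjusted p = 0.0197).

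Hk1, the constitutive hexokinase, ran between 159 and 261 CPM in sarcomatoid tumours with a median of 186 CPM, against 153 to 527 CPM with a median of 288 CPM in carcinosarcomas, 6 of which lay above all sarcomatoid tumours (-0.68, SE 0.19, edgeR adjusted p = 0.0142). Pfkp ran between 84.8 and 202 CPM with a median of 123 CPM, against 82.3 to 336 CPM with a median of 192 CPM (-0.81, SE 0.29, edgeR adjusted p = 0.0472). Hif1a ran between 259 and 862 CPM with a median of 435 CPM, against 138 to 420.3 CPM with a median of 218 CPM. For Hif1a 5 of 9 sarcomatoid tumours lay above all carcinosarcomas (0.92, SE 0.29, edgeR adjusted p = 0.0270). Members not called ran between -2.44 for Fbp2 (edgeR adjusted p = 0.0968) and 1.11 for Adm (edgeR adjusted p = 0.148).

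Without carcinosarcomas 17 and 4 and KP adenocarcinoma 90.01A, 10 members changed where 37.3% of genes did. These were the same 6 with Pfkfb4 (0.63), which sets fructose 2,6-bisphosphate, Pgam1 (0.79) and Adm (1.55) higher and Fbp2 (-2.76) lower. The epithelial markers differed here as well, with all 8 lower in sarcomatoid tumours, and 4 of 8 mesenchymal and 3 of 6 macrophage markers were higher, and their part was not tested. Of 23 other glycolysis genes the transporter Slc16a7 (1.86) was higher and 5 were lower, Slc2a4 (-2.79), the pyruvate carboxylase Pcx (-0.95) and Pdk2 (-0.93) the furthest. Of 28 other hypoxia-response genes Hif1an (-0.70) and the demethylase Kdm3a (-0.68) were lower. Of the pentose phosphate genes Pgd (0.63) was higher and Rpia (-0.62) lower, all at an edgeR adjusted p between 0.00471 and 0.0423.

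**Figure D3:**
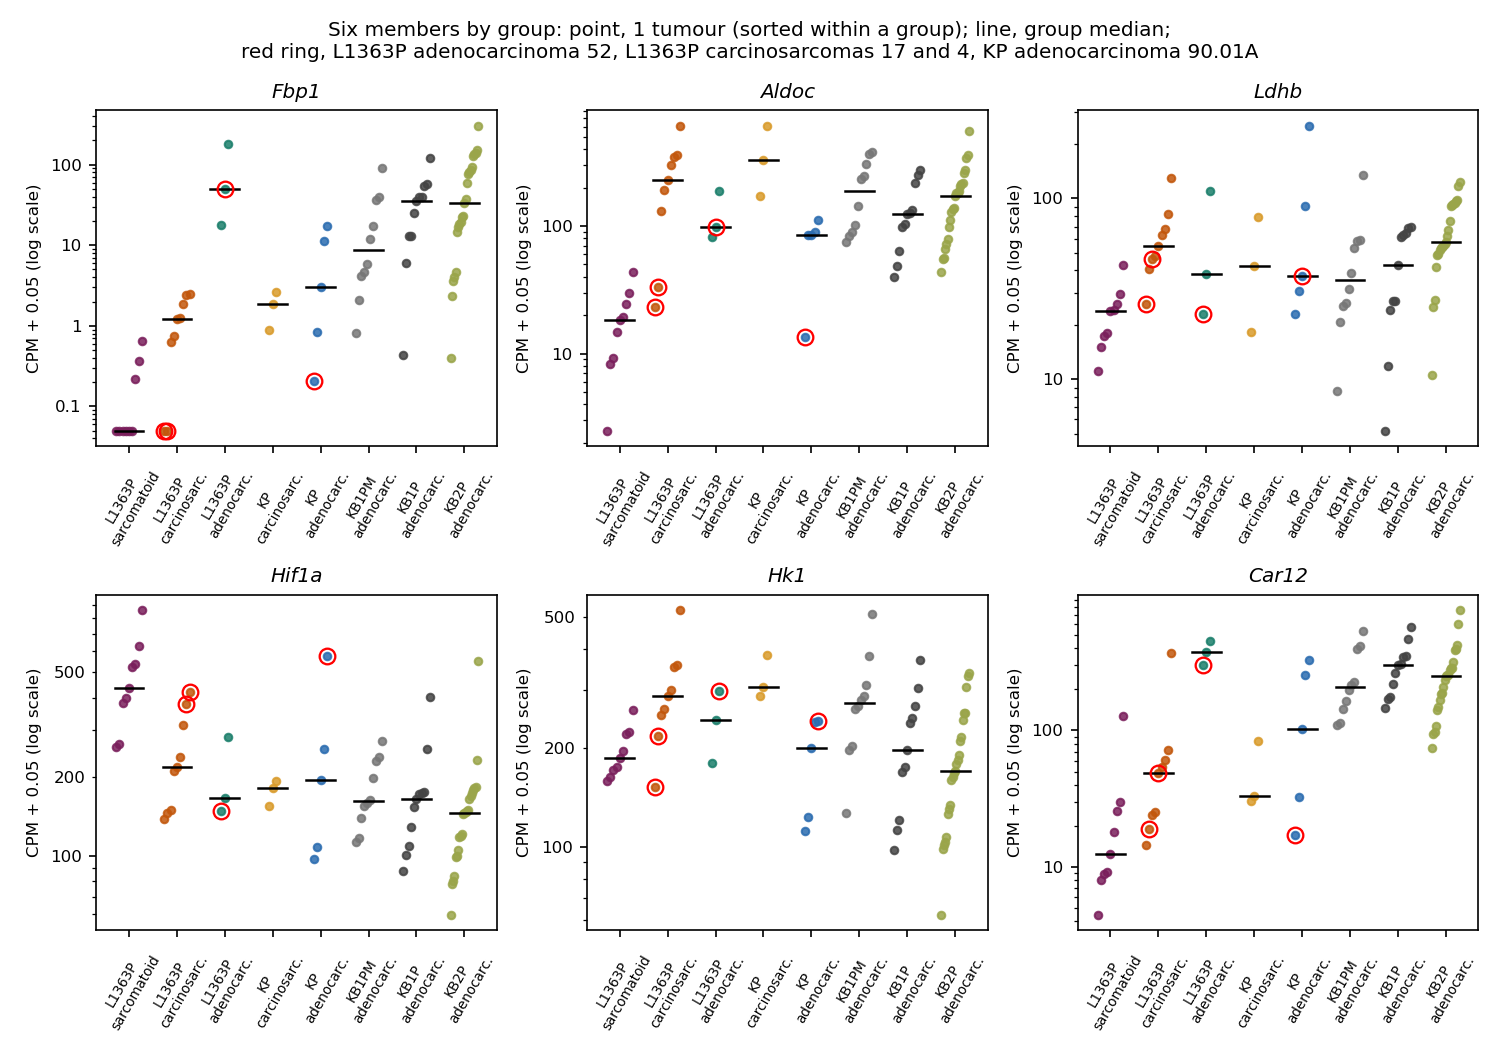
CPM of Fbp1, Aldoc, Ldhb, Hif1a, Hk1 and Car12 in every tumour by group (0.05 CPM added for the log axis), with L1363P adenocarcinoma 52, L1363P carcinosarcomas 17 and 4 and KP adenocarcinoma 90.01A ringed. Black lines are group medians, and among the L1363P groups the sarcomatoid tumours have the lowest medians of Fbp1, Aldoc and Car12 and the highest of Hif1a.

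KP carcinosarcomas were compared with KP adenocarcinomas, and L1363P with KP tumours of the same histology, all within run 5625. None of the 34 members passed in any of these 3 comparisons, where 0%, 0.211% (0.0681% lower and 0.142% higher, for L1363P against KP adenocarcinomas) and 0% of all genes tested did, and DESeq2 and limma also called none. Unadjusted p-values under 0.05 were seen for 4, 1 and 1 members. In KP carcinosarcomas 26.02A, 130.10A and 5 these were Hk1 (384, 307 and 288 CPM, against 112 to 242 CPM with a median of 201 CPM in KP adenocarcinomas), Aldoc (613, 332 and 173 CPM, against 13.5 to 111 CPM with a median of 85.5 CPM), Eno1 and Slc16a1. Their log2 fold changes were 0.84, 2.25, 0.60 and 1.09 (edgeR adjusted p = 0.344, 0.344, 0.399 and 0.337). Hk1 and Aldoc were higher in all 3 carcinosarcomas than in all 5 adenocarcinomas, though neither passed. How many of all genes separate these small groups was not counted.

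Fbp1 had 17.6, 182 and 50.3 CPM in L1363P adenocarcinomas, against 11.2, 0.159, 17.0, 0.799 and 2.96 CPM in KP adenocarcinomas 89.01A, 90.01A, 131.03A, 39 and 40. All L1363P values lay above all KP values, and the log2 fold change of 3.67 with SE 1.17 did not pass (edgeR adjusted p = 0.165). In carcinosarcomas Slc2a3 had a median of 20.7 CPM in L1363P (3.98 to 63.0 CPM), against 14.7, 4.66 and 6.27 CPM in KP tumours 26.02A, 130.10A and 5 (log2 fold change 1.65, edgeR adjusted p = 0.935). The step between carcinosarcoma and adenocarcinoma differed most between L1363P and KP for Fbp1 (-4.27, SE 1.54, unadjusted p = 0.00997) and Fbp2 (-3.82, SE 1.74, unadjusted p = 0.0372). In this test of the difference, an interaction term added after seeing the data, 0 of 34 members passed and 2 had an unadjusted p under 0.05, where 0.0124% of genes passed (edgeR adjusted p = 0.235 and 0.303).

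KP and L1363P adenocarcinomas were then set against KB1P and KB2P adenocarcinomas, where sequencing run differs with genotype throughout. Gapdh, which oxidises glyceraldehyde 3-phosphate, was higher in all 4 comparisons, as was Pgam1, and Pgk1 in 3 of them. The log2 fold changes of Gapdh were 3.06 (L1363P against KB1P, SE 0.53), 3.23 (L1363P against KB2P, SE 0.52), 3.29 (KP against KB1P, SE 0.46) and 3.46 (KP against KB2P, SE 0.45), with edgeR adjusted p between 6.54e-09 and 3.56e-05. In the same order Pgam1 had 1.93, 2.33, 2.03 and 2.43 (edgeR adjusted p between 5.33e-13 and 1.33e-06). Pgk1 had 1.85 for L1363P against KB2P, 1.59 for KP against KB1P and 2.04 for KP against KB2P (edgeR adjusted p = 0.00220, 7.31e-04 and 5.76e-06), and 1.39 for L1363P against KB1P did not pass (adjusted p = 0.0535). The first Pgk1 call was lost without L1363P adenocarcinoma 52 (1.17, edgeR adjusted p = 0.226).

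By tumour, Gapdh had 371, 636 and 806 CPM in the L1363P and 418, 650.2, 1853, 319 and 234 CPM in the KP adenocarcinomas, against 12.1 to 1261 CPM with a median of 31.4 CPM in 21 KB1P and KB1PM tumours and 15.7 to 149 CPM with a median of 59.96 CPM in 23 KB2P tumours. Pgam1 had 34.6, 51.6 and 71.0 CPM and 54.6, 114, 40.0, 45.3 and 31.4 CPM, against 7.85 to 38.9 CPM with a median of 10.9 CPM in KB1P and KB1PM tumours and 4.11 to 19.9 CPM with a median of 9.62 CPM in KB2P tumours. All L1363P and KP adenocarcinomas lay above all KB2P tumours in both genes. The KB1P tumours above 100 CPM of Gapdh were the 2 of run 3528.

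Gapdh and Pgam1 also differed between sequencing runs inside KB1P-titled tumours, while inside KB2P tumours no member passed between runs 2749 and 2459. The runs below differ in genotype as well, since run 5625 holds the L1363P and KP tumours alone. The medians of Gapdh by run were 578 CPM in run 5625 and 724 CPM in run 3528 (187 and 1261 CPM), and between 20.3 and 62.8 CPM in the 7 other runs. Pgk1 had medians of 192 CPM in run 5625 and 187 CPM in run 3528, and 21.8 to 49.97 CPM elsewhere, and Pgam1 66.9 and 38.7 CPM, and 5.29 to 12.9 CPM elsewhere. Tpi1, the neighbouring enzyme in the pathway, did not follow this split, with run medians between 332 and 722 CPM. Within KB1P-titled tumours, Gapdh was higher by 4.52 on the log2 scale in run 3528 than in runs 1857 and 2119 (SE 0.49, edgeR adjusted p = 1.81e-04), and Pgam1 by 1.76 (SE 0.29, edgeR adjusted p = 0.00687). That comparison, with 2 tumours in run 3528, called 2 members where 1.07% of genes passed (0.903% higher and 0.164% lower), and Pgk1 had 2.33 (edgeR adjusted p = 0.110). Run and genotype cannot be told apart for these 3 genes. They also have near copies in the genome, at least 90% identical over at least 300 bases: 151 pseudogenes for Gapdh, 4 for Pgk1 and 3 for Pgam1, and their part in the result was not tested, and other members with such copies had run medians as follows. Bnip3, with 4, had 89.3 CPM in run 3528 and 69.9 CPM in run 5625, and 20.8 to 46.2 CPM elsewhere. Eno1, with 5, had 276 and 324 CPM in those runs, and 88.3 to 233 CPM elsewhere. Ldha, with 11, had 974 and 955 CPM, and 362 to 838 CPM elsewhere. Pkm, with 6, had 1147 and 1472 CPM, and 620 to 1393 CPM elsewhere. Gpi1, with 1, had 516 and 394 CPM, and 218 to 431 CPM elsewhere. Ldhb, with 1, had 19.5 and 38.4 CPM, and 31.5 to 71.0 CPM elsewhere. Tpi1, whose run medians are given above, has 2 such copies. None of Bnip3, Eno1 and Ldha passed within KB1P-titled tumours between run 3528 and runs 1857 and 2119 (log2 fold changes 1.39, 0.98 and 0.49, edgeR adjusted p = 0.476, 0.584 and 0.792). With 2 tumours in run 3528, members not called are not shown to be alike. The share of 50-base stretches also found in other genes was 25.12% for Gapdh, 53.88% for Pgk1 and 36.16% for Pgam1. It was 47.17% for Bnip3, 25.99% for Eno1, 9.26% for Ldha, 25.77% for Pkm, 15.84% for Gpi1, 20.99% for Ldhb and 4.18% for Tpi1. What near copies add to any of these values was not tested.

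**Figure D4:**
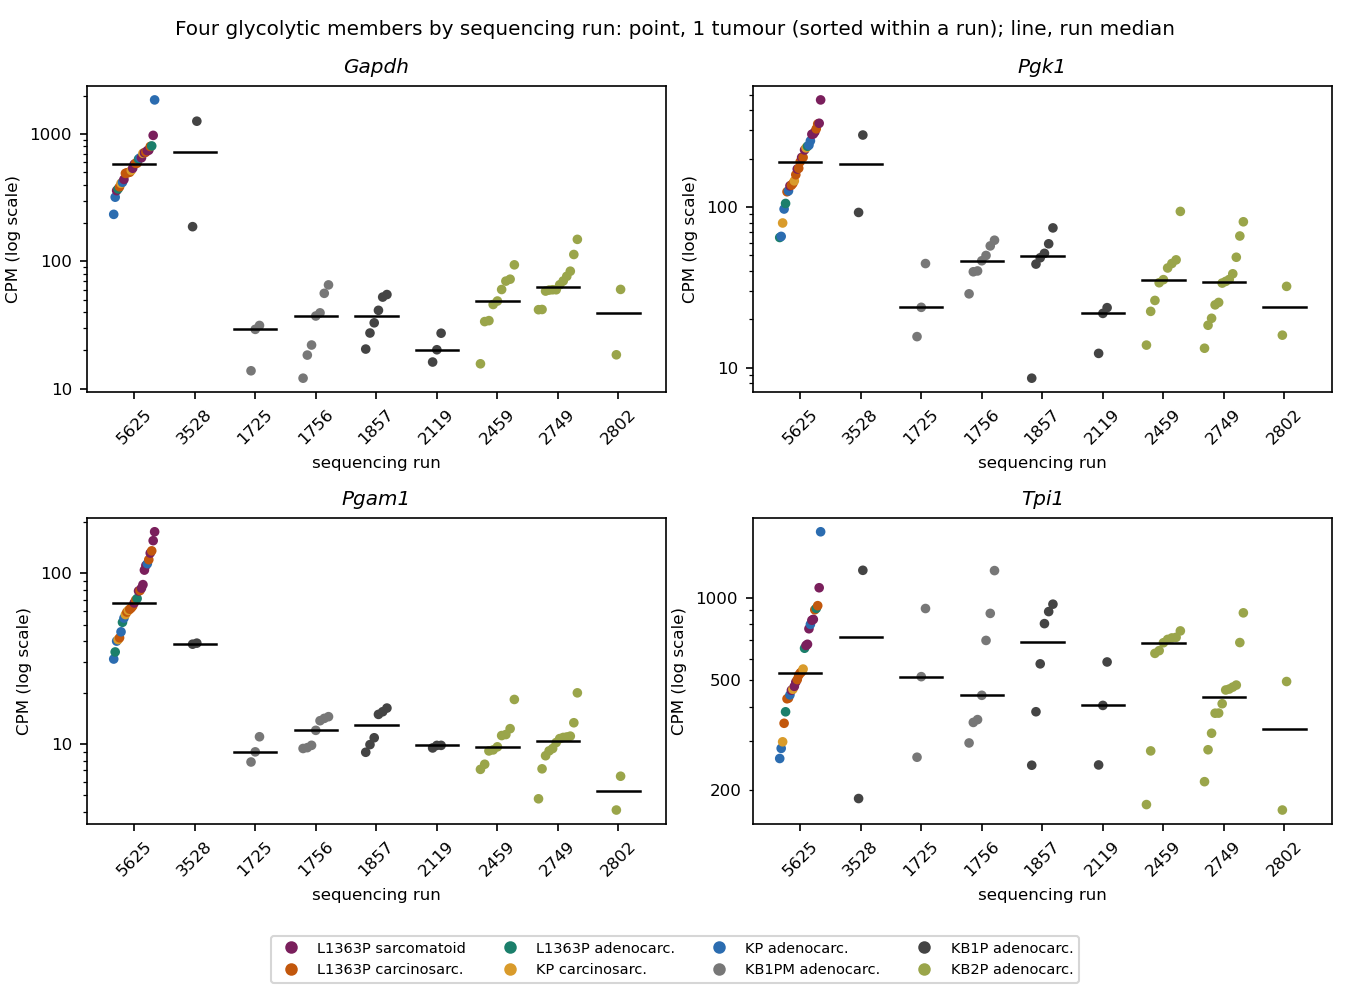
CPM of Gapdh, Pgk1, Pgam1 and Tpi1 (log axis) by sequencing run, 1 point per tumour. Gapdh, Pgk1 and Pgam1 are high in runs 3528 and 5625 and low in the other 7 runs, while Tpi1 shows medians of 332 to 722 CPM throughout.

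Beyond these genes, L1363P adenocarcinomas had no other called member: 2 changed against KB1P, where 5% of genes did (2.65% higher and 2.35% lower), and 3 against KB2P, where 9.1% did (4.41% higher and 4.69% lower). KP adenocarcinomas differed in 6 members against KB1P, 4 higher and 2 lower, where 27.3% of genes did (15% higher and 12.3% lower). They differed in 7 against KB2P, 4 higher and 3 lower, where 35.3% did (17.2% higher and 18.1% lower). Pfkl, the liver-type phosphofructokinase, had 248, 278, 191, 205 and 105 CPM in KP adenocarcinomas, against a median of 400.2 CPM in KB1P and KB1PM (132 to 825 CPM) and 452 CPM in KB2P tumours (139 to 1454 CPM). Its log2 fold changes were -1.01 (SE 0.35, edgeR adjusted p = 0.0259) against KB1P and -1.23 (SE 0.36, edgeR adjusted p = 0.00548) against KB2P, and the first was lost without KP tumour 39 or 40 (adjusted p = 0.0560 and 0.112). Egln3, an oxygen-sensing prolyl hydroxylase that HIF induces, had 81.2, 35.5, 19.1, 14.2 and 54 CPM, against medians of 117 CPM in KB1P and KB1PM (54 to 545 CPM) and 135 CPM in KB2P tumours (19.5 to 293 CPM). It was lower in both comparisons (-1.99, SE 0.53, edgeR adjusted p = 0.00312, and -1.77, SE 0.52, edgeR adjusted p = 0.00554).

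Pfkfb4 had 10.5, 36.5, 9.97, 20.4 and 22.7 CPM in KP adenocarcinomas, against medians of 9.73 CPM in KB1P and KB1PM and 10.3 CPM in KB2P tumours. It was higher by 0.85 and 0.82 (edgeR adjusted p = 0.0135 and 0.0122), and both calls were lost without KP tumour 90.01A (0.57 and 0.56, adjusted p = 0.183 and 0.15). Fbp1 was lower in KP than in KB2P adenocarcinomas, with a median of 2.96 CPM against 33.7 CPM (0.344 to 305 CPM). Its log2 fold change was -3.30 with SE 1.08 (edgeR adjusted p = 0.0136), and against KB1P it was -2.10 (adjusted p = 0.108). Skeletal muscle markers were higher in KP than in KB1P and in KB2P adenocarcinomas (7 of 7 tested, with sums up to 2134 CPM in KP tumour 40, against at most 8.25 CPM in KB1P and KB1PM and 77.3 CPM in KB2P tumours), as were 5 of 6 macrophage and 5 of 5 endothelial markers. The median muscle sum was 9.01 CPM in KP adenocarcinomas (lowest 2.03 CPM), against 3.62, 4.64 and 4.39 CPM in KB1P-titled, KB1PM and KB2P tumours. The part of these cell types was not tested.

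Other genes of these pathways were called on both sides. In KP against KB1P adenocarcinomas 5 of 26 other glycolysis genes were higher, led by the muscle mutase Pgam2 (2.71), Pdk4 (1.61) and the muscle enolase Eno3 (1.41), and 2 were lower. Whether Pgam2 and Eno3 pass without KP tumour 40, the one with most skeletal muscle markers, is not given here. Of 28 other hypoxia-response genes 2 were higher, Lox (3.45) and Stc2 (1.47), and 4 lower, led by Hif3a (-4.0) and Ddit4 (-1.68), and of 7 pentose phosphate genes Pgls was lower (-0.92). In KP against KB2P adenocarcinomas the counts were 3 higher and 3 lower of 26, 2 higher and 5 lower of 28, and 2 higher and 2 lower of 7. In L1363P adenocarcinomas the transporter Slc2a8 and the prolyl hydroxylase Egln2 were lower than in KB1P (-1.15 and -0.83), and 6 genes of the 3 lists, among them Slc2a2 (-5.79) and Hif3a (-3.87), were lower than in KB2P. All of these passed at an edgeR adjusted p under 0.05, with the largest at 0.0483.

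KB1P and KB2P adenocarcinomas, from different runs as well, differed in 5 members where 13.2% of genes did (5.38% higher and 7.81% lower). Hk2, Eno2, Ldha and Adm were higher in KB1P tumours and Fbp2 was lower. Hk2 ran between 48.4 and 329 CPM with a median of 128 CPM in 21 KB1P and KB1PM tumours, against 15.6 to 212 CPM with a median of 76.3 CPM in 23 KB2P tumours (log2 fold change 0.70, SE 0.23, edgeR adjusted p = 0.0303). Eno2 ran between 6.77 and 155 CPM with a median of 46.7 CPM, against 3.64 to 94.5 CPM with a median of 18.4 CPM (1.19, SE 0.37, edgeR adjusted p = 0.0215). Ldha ran between 245 and 1700.3 CPM with a median of 738 CPM, against 235 to 1031 CPM with a median of 516 CPM (0.57, SE 0.18, edgeR adjusted p = 0.0237). The groups overlapped widely: 4, 5 and 4 of the 21 KB1P tumours lay above all KB2P tumours.

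Adm ran between 3.42 and 81.2 CPM with a median of 12.3 CPM in KB1P and KB1PM tumours, against 1.17 to 41.1 CPM with a median of 6.18 CPM in KB2P tumours (1.18, SE 0.40, edgeR adjusted p = 0.0368). It was the one hypoxia-induced member called, and the other 6 were not. Fbp2 had a median of 0.213 CPM (0 to 5.53 CPM) in KB1P and KB1PM tumours and of 0.803 CPM in KB2P tumours, where tumour 46 had 259 CPM (-3.77, SE 0.87, edgeR adjusted p = 0.00168). Without tumour 46 Fbp2 was no longer called (-1.20, edgeR adjusted p = 0.241), while Hk2, Eno2, Ldha and Adm were. With KB2P tumours of run 2459 alone only Hk2 was called (0.90, edgeR adjusted p = 0.0211), and with those of run 2749 alone Eno2 (1.77, edgeR adjusted p = 0.0114) and Fbp2, which then rests on tumour 46 (-4.65, edgeR adjusted p = 3.18e-04). Between these runs inside KB2P, 0 of 34 members passed in run 2749 against run 2459 and 5 had an unadjusted p under 0.05, where 0.675% of genes passed (0.262% higher and 0.413% lower), and DESeq2 and limma called none. Of pathway genes that are not members, Hkdc1 (-5.29), Ldhc (-3.37) and Slc2a2 (-2.93) were lower in KB1P of 26, and Egln2 (-0.38) of 28.

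KB1PM-titled and KB1P-titled tumours differed in 1 member, where 0.887% of genes were called (0.47% higher and 0.416% lower). Gapdh was lower in KB1PM tumours, with 12.1 to 65.4 CPM and a median of 30.4 CPM, against 16.2 to 1261 CPM and a median of 33.0 CPM in KB1P-titled tumours (log2 fold change -2.30, SE 0.50, edgeR adjusted p = 0.00636). Without the 2 KB1P libraries of run 3528 the log2 fold change was -0.01 (edgeR adjusted p = 0.994).

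Which members varied together from tumour to tumour was asked within the 2 largest sets, 23 KB2P and 21 KB1P and KB1PM adenocarcinomas, the second centred on its titles. This was added after seeing the data. All 561 pairs were correlated on log2 CPM, with two-sided permutation p-values adjusted over the 561 pairs, and a pair passed where Pearson's r and Spearman's rho both did. In KB2P tumours 63 pairs passed, all positive, and in KB1P tumours 53, of which 52 positive, with median r over all pairs of 0.22 and 0.29. Over every pair of genes tested with counts in these tumours, 18488 and 18484 genes, the median r was 0.0 and 0.0005. An r of at least 0.546 in KB2P and 0.510 in KB1P tumours, the lowest among the positive pairs that passed, was reached by 15% and 25.5% of member pairs, against 1.17% and 2.29% of all gene pairs. These shares pool runs, run 3528 of KB1P among them, and were not computed within runs. Of the pairs, 19 passed in both sets, or 30.2% and 35.8% of each list, all positive in both. Among the 21 pairs of 2 hypoxia-induced members 5 passed in KB2P tumours and 0 in KB1P tumours. Among the 189 with 1 such member 27 and 16 passed, and among the 351 with none 31 and 37.

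The closest pair in KB2P tumours was Pgk1 and Bnip3, while among the 19 shared pairs Gpi1 with Ldha was closest in KB1P tumours (r = 0.885, rho 0.927). For Pgk1 and Bnip3, r was 0.868 in KB2P tumours (rho 0.880, permutation adjusted p = 4.68e-04, r = 0.865 without the 2 tumours of most extreme Pgk1). In KB1P tumours the r of Pgk1 and Bnip3 was 0.857 (rho 0.786, permutation adjusted p = 0.00255, r = 0.772 without 2). Within runs 2749 and 2459 of KB2P r was 0.890 and 0.907, within runs 1756 and 1857 of KB1P 0.599 and 0.945, and without run 3528 it was 0.833. The glucose importer Slc2a1 (GLUT1) and the lactate exporter Slc16a3 had an r of 0.782 in KB2P (rho 0.896, permutation adjusted p = 7.48e-04, 0.809 without 2) and 0.855 in KB1P tumours (rho 0.777, permutation adjusted p = 0.00187, 0.839 without 2). Within runs 2749, 2459, 1756 and 1857 the r of this pair was 0.850, 0.841, 0.815 and 0.867. Adm joined both transporters, with r = 0.759 and 0.647 for Slc16a3 and 0.735 and 0.683 for Slc2a1 in KB2P and KB1P tumours. Slc2a1 with Hk2 had 0.710 and 0.729, and Gpi1 with Ldha 0.627 and 0.885, but Gpi1 with Ldha had only 0.301 within run 2459.

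**Figure D5:**
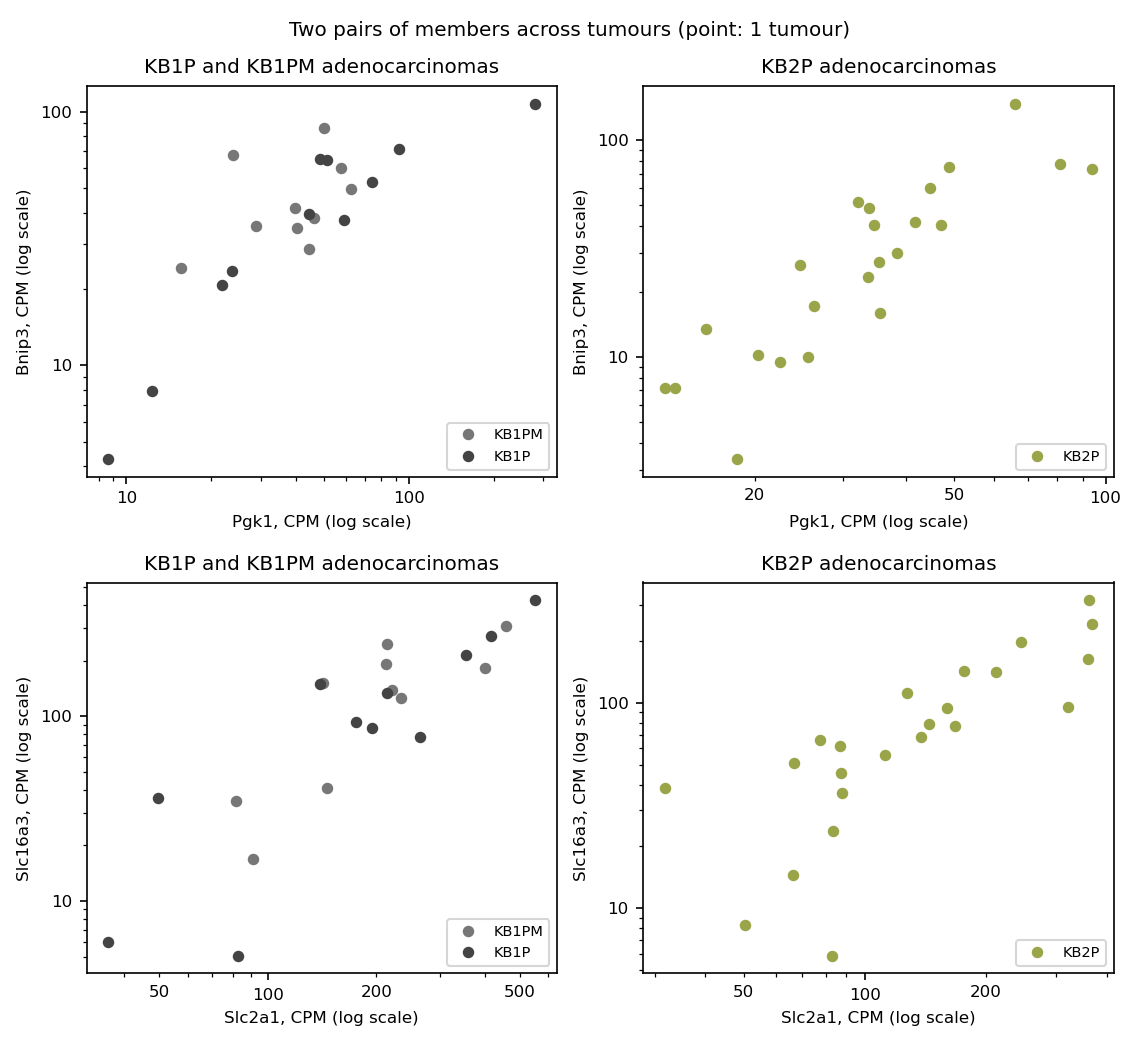
Log2 CPM of Pgk1 against Bnip3 and of Slc2a1 against Slc16a3 in KB1P with KB1PM tumours and in KB2P tumours, 1 point per tumour. In all panels tumours with more of one RNA have more of the other, with r between 0.782 and 0.868.

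The other pairs that passed in both sets joined the same few genes: Slc2a1 with Eno2 and Ankrd37, Slc16a3 with Eno2, Ndrg1, Ankrd37, Pkm and Pfkp, Bnip3 with Eno2 and Pkm, Tpi1 with Hk2, Ldha and Pkm, and Pkm with Ldha. Their r ran between 0.577 and 0.823. Not all held inside each run. Within run 1756 of KB1P, with 7 tumours, Pkm with Slc16a3 had 0.0807 and Pfkp with Slc16a3 0.144, against 0.953 and 0.697 within run 1857. Slc2a1 with Eno2, Slc16a3 with Eno2, Tpi1 with Hk2 and Slc2a1 with Ankrd37 had 0.238, 0.239, 0.247 and 0.366 within run 1756. Within run 1857 their r ran between 0.842 and 0.967. Within run 2459 of KB2P, Pfkp with Slc16a3 had 0.277 and Tpi1 with Pkm 0.357. Without KB2P tumour 30 the r of the 19 pairs ran between 0.583 and 0.868, and without KB1PM tumour 8 between 0.623 and 0.885. Levels shared by 2 genes of one library also share its depth and composition. Of the 19 pairs, the promoters of the 2 with the highest r in KB2P tumours are shown. All 4 hold the core motif, here in capitals on either strand (ACGTG or GCGTG, read as CACGT or CACGC on the other strand). In Bnip3 an overlapping match on both strands forms CACGTG. The windows are as above, on chr7:138909457-138909756 (minus strand), chrX:106186850-106187149, chr4:119108495-119108794 and chr11:120948817-120949116 (plus strand) for Bnip3, Pgk1, Slc2a1 and Slc16a3.
Bnip3 promoter: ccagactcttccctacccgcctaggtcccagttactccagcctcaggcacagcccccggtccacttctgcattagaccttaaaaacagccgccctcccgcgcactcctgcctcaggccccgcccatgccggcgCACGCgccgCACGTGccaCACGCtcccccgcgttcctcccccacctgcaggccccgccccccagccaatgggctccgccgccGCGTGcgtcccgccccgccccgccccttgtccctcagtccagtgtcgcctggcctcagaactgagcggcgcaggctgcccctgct
Pgk1 promoter: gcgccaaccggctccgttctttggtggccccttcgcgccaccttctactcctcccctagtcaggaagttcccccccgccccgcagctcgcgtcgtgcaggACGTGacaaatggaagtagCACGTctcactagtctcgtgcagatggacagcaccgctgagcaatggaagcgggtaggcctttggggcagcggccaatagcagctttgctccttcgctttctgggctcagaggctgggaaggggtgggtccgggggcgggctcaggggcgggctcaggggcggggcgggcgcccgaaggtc
Slc2a1 promoter: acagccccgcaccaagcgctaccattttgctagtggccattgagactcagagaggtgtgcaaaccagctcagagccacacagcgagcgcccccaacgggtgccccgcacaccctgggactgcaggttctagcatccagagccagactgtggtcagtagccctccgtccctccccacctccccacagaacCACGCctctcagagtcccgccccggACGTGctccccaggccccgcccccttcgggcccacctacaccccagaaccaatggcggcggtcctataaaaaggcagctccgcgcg
Slc16a3 promoter: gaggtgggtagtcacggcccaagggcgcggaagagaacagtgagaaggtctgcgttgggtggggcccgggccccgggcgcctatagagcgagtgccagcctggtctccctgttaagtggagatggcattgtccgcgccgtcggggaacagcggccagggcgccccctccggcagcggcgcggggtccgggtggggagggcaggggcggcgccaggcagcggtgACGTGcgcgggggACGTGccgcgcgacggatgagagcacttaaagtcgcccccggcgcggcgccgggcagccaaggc

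Car9, often read as a marker of hypoxia, was set against each of the other 33 members. In KB2P tumours 0 of 33 relations passed, and the highest r was that of Egln3 at 0.467 (rho 0.362, permutation adjusted p = 0.344, 0.378 without the 2 tumours of most extreme Car9, 0.676 and 0.201 within runs 2749 and 2459). In KB1P tumours 2 passed: Slc16a3 (r = 0.607, rho 0.588, permutation adjusted p = 0.0206, 0.595 without 2, 0.681 without run 3528, 0.657 without KB1PM tumour 8) and Ldhb (r = -0.689, rho -0.675, permutation adjusted p = 0.0102, -0.612 without 2, -0.680 without run 3528, -0.688 without KB1PM tumour 8). Neither passed in KB2P tumours, where they had r = 0.345 and 0.121 (permutation adjusted p = 0.444 and 0.963).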

How the data were processed

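RNA of 73 mouse mammary tumours was measured by poly(A)-selected stranded mRNA sequencing, and each tumour was put in a group by genotype and histology from the labels. The authors deposited raw counts per gene symbol and log2 normalized counts. The submitters' processing notes name STAR 2.7.3a, featureCounts 2.0.0, cutadapt 2.10, DESeq and, as the build, mm10. A strand setting for the counting was not found in them, so reads of antisense partners cannot be told apart. Members and gene lists were chosen with earlier results of these data known.

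Counts were fitted with edgeR 4.0.16 (filterByExpr with a minimum count of 10, TMM scaling, quasi-likelihood F-test, Benjamini-Hochberg adjustment at 0.05) in R 4.3.3. The 29 libraries of run 5625 were fitted with 5 groups over 16147 genes for comparisons within L1363P and KP, and all 73 with 8 groups over 18492 genes for the others. KB1P stands for the equal-weight average of the KB1P-titled and KB1PM-titled groups. Every called member is named, and up to 3 per role by log2 fold change are given by tumour. Levels are CPM with TMM factors over 73 libraries, per kilobase of exon from GENCODE on GRCm38 where genes are compared. For correlations CPM were put on the log2 scale (prior count 2), with 100000 permutations. Alternatives included DESeq2 1.42.0, limma 3.58.1 on the deposited log2 values, DESeq2 size factors, no filter, the compared groups alone and leaving out tumours. The fits and correlations were tested on simulated data. Samples that share a number across groups were not paired by the labels. Limits from 0 counts (3 counts) and intervals cover counting error only.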

Additional observations from a re-analysis of the deposited data

Results flagged for a closer look

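Groups of 4 to 10 tumours were examined, namely L1363P sarcomatoid tumours, L1363P carcinosarcomas, KP adenocarcinomas and KB1PM tumours. The larger KB1P-titled and KB2P groups, which hold extremes such as Fbp2 at 259 CPM in KB2P tumour 46, and the groups of 3 were not. In 8 of the 136 sets of 1 member in 1 of these 4 groups (5.88%) the highest or lowest tumour lay far from the rest by Dixon's criterion on log2 CPM, which chance alone meets in about 1 of 20 groups. In L1363P sarcomatoid tumour 10, Slc16a1 had 296 CPM, with the next tumour at 137 CPM. In L1363P carcinosarcomas, Slc2a1 had 449 CPM in tumour 18 (next 237 CPM), Car12 had 371 CPM in tumour 6 (next 71.6 CPM) and Egln3 had 390.4 CPM in tumour 54.1 (next 116 CPM). In KP adenocarcinomas, Aldoc was low in 90.01A at 13.5 CPM (next 85.2 CPM) and Car9 high in 89.01A at 39.2 CPM (next 5.38 CPM). In KB1PM tumours, Pfkfb4 had 38.5 CPM in tumour 2 (next 12.8 CPM) and Ldha 1700.3 CPM in tumour 6 (next 831 CPM).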

How the results depend on the processing

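Of 45 named calls, 24 held under every alternative run and 21 were lost at least once; of 472 values under alternatives, 413 kept direction and side of the threshold, 58 kept direction only, and 1 reversed, Car9 in sarcomatoid against adenocarcinoma L1363P tumours (0.86 without adenocarcinoma 52). In that comparison the count of 8 members was 5 with no filter on low counts and 5 to 17 leaving out 1 adenocarcinoma. With no filter 4631 of 28325 genes passed. Without adenocarcinomas 7.2, 26.2 and 52 in turn, 3831 of 16692, 2490 of 16568 and 4260 of 16717 genes passed. In L1363P carcinosarcomas against adenocarcinomas the count of 2 was 1 under limma, in the fit of the compared groups only, without carcinosarcoma 54.2 and with at least 75% epithelium, and 1 to 3 leaving out 1 adenocarcinoma. Genes passing numbered 175 of 15940 under limma and 6 of 15152 in the compared groups only. Without 54.2 they numbered 308 of 16134, and with at least 75% epithelium 113 of 16047. In sarcomatoid tumours against L1363P carcinosarcomas the count of 6 was 10 without carcinosarcomas 17 and 4 and KP adenocarcinoma 90.01A and 11 with at least 75% epithelium. In these fits 5994 of 16053 and 5560 of 16047 genes passed. Here Pfkp was lost under limma (adjusted p = 0.0814), with no filter (0.0756) and without 54.2 (0.0637). DESeq2 called 11 members in KP against KB1P adenocarcinomas, where edgeR called 6. Of 18492 genes DESeq2 called 5458 and edgeR 5045. In KB1P against KB2P tumours the count of 5 was 3 under limma, 2 in the compared groups only, 2 and 1 with KB2P runs 2749 and 2459 alone, and 0 with the sample number as a replicate block. In the same order 1797 of 18210, 1521 of 15909, 1219 of 18190, 3276 of 18053 and 265 of 15909 genes passed. The 1 call in KB1PM-titled against KB1P-titled tumours was 0 under limma, in the compared groups only, under the replicate block and without run 3528. Of 17 pairs of samples that share a number across groups, 6 correlated above 0.1 (r between -0.19 and 0.45), so the numbers are not read as pairs. The slope on epithelial share called 0 members without carcinosarcomas 17 and 4 and 10 without carcinosarcoma 6, where 0 of 14903 and 2265 of 14395 genes passed. The cause of these changes was not tested. Group means moved by a factor of 0.958 to 1.04 under DESeq2 size factors. With 3 L1363P adenocarcinomas and 3 KP carcinosarcomas, members not called there are not shown to be alike, and depth limits Fbp1 and Fbp2 where a library holds 0 counts.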
